A study of Mus musculus with 31 samples.

Results

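The genes described here are 37 named genes of fatty acid oxidation and ketone body metabolism, measured in the liver of 31 mice. They were chosen by symbol from a list of names, a rule that takes no measured value, though the list was made with earlier results of these data known. All 37 were found among the 31172 gene symbols of each mouse's file. They were grouped by role into a mitochondrial branch of 17 genes, a peroxisomal branch of 7 genes and 13 genes in neither branch, which are acyl-CoA synthetases and carriers, thioesterases, ketone body enzymes, enzymes found in both or in unassigned places, and 2 signals of the fasted state.

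In liver, a fatty acid is joined to coenzyme A and then either carried into mitochondria on carnitine or shortened in peroxisomes, which take very long and branched chains. In mitochondria each round of oxidation uses an acyl-CoA dehydrogenase, a hydratase, a hydroxyacyl-CoA dehydrogenase and a thiolase. Electrons from the acyl-CoA dehydrogenase are passed on by the electron transfer flavoprotein. The acetyl-CoA released can be turned into ketone bodies for other organs. Peroxisomes use their own oxidases, multifunctional enzymes and thiolases. Many of these genes are known targets of the nuclear receptor PPAR-alpha, which acts in fasting.

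All mice were hFIX-R29X mice, which carry a human coagulation factor IX minigene with a nonsense mutation and lack the mouse's own factor IX, so every group, controls included, shares this background. They were 8 to 14 weeks old at treatment and received 6 subcutaneous doses, given every 5 days by the treatment protocol although the dose label calls the dosing weekly, with livers taken 48 h after dose 6. The DPBS group, given buffer, had 11 mice, 6 female and 5 male. A scrambled Control-GalNAc-ASO was given at 15 mg/kg to 4 mice and at 20 mg/kg to 6 mice, each with as many females as males. The Upf3b-GalNAc-ASO was given at 10 mg/kg to 5 mice and at 20 mg/kg to 5 mice, each 2 female and 3 male. An ASO is a short DNA-like strand that directs cleavage of the RNA it pairs with, GalNAc is a sugar taken up by hepatocytes, and Upf3b is a factor of nonsense-mediated mRNA decay, the pathway that removes RNAs with early stop codons. The lower Upf3b dose of 10 mg/kg was set against the 15 mg/kg control, so those doses were not equal, and the 20 mg/kg groups were set against each other.

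Expression was given as TPM, a gene's share of all transcripts scaled to a fixed total, from reads at the 3′ ends of RNAs. Most values were whole multiples of 1 step that was the same for short and long transcripts, so they appear not to be divided by transcript length, and levels are compared between mice and not between genes. Depth, recovered from the size of 1 read in each file, was 1020676 to 7391614 reads per mouse with a median of 3627941, so 3 reads, the limit that a count of 0 allows, stood for 0.406 to 2.94 TPM. These limits cover counting error only. Upf3b itself was 97.3 ± 33.2 TPM (SD, n = 11) in DPBS mice and 111 ± 21.8 TPM (n = 6) in the 20 mg/kg control mice. It fell to 7.80 ± 5.82 TPM (n = 5) in Upf3b-GalNAc-ASO 20 mg/kg mice, by 3.87 on the log2 scale with an adjusted p of 1.59e-05 in limma. At 10 mg/kg, 4 libraries held 3.95 to 23.3 TPM, but the library labelled Upf3b-GalNAc-ASO 10 mg/kg replicate 3 held 53.7 TPM, inside the 15 mg/kg control range of 27.1 to 78.7 TPM. The Upf3b difference of the mice labelled 10 mg/kg was -1.73 (SE 0.61, adjusted p = 0.211) against the 15 mg/kg control and -2.57 (adjusted p = 0.00455 in limma) against DPBS. Without that library these were -2.22 (SE 0.54, adjusted p = 0.0597) and -3.19 (adjusted p = 7.47e-05). The same library had the fewest reads of all, and its median correlation with its own group was 0.693. The main results that rest on it are also given without it.

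The liver label was checked against markers: 8 of 8 hepatocyte markers had a median of at least 5 TPM, and 5 of 6 lymphocyte and 3 of 4 adipocyte markers had a median of 0. The summed TPM of the 7 sinusoidal endothelial markers ran from 621 to 1676 in 20 mg/kg control mice and from 1544 to 2242 in Upf3b 20 mg/kg mice, and from 590 to 1156 in 15 mg/kg control mice and 925 to 2239 in Upf3b 10 mg/kg mice. In DPBS mice it ran from 620 to 2395 TPM, a range that held all Upf3b 20 mg/kg mice. Pecam1 made up most of this sum, at a mean of 1214 TPM in DPBS mice, where Kdr was next at 77.7 TPM. The hepatocyte sum differed by sex, so it is given within sex. At the higher dose it was 28310 and 29310 TPM in Upf3b females against 26940 to 28210 TPM in control females, and 16430 to 17560 TPM in Upf3b males against 16280 to 23630 TPM in control males. In the lower dose pair, Upf3b females were at 29720 TPM and, in the library labelled replicate 3, 17140 TPM against 22740 and 31550 TPM, and males at 14950 to 22660 TPM against 23550 and 25250 TPM. Of the 4 skeletal muscle markers, 2 had a median of at least 5 TPM. Their sum was 11.5 to 327 TPM in Upf3b 20 mg/kg mice, 4 of the 5 lying above every control mouse of that dose (3.52 to 23.5 TPM), 4.50 to 60.0 TPM against 1.19 to 19.6 TPM in the lower dose pair, and 5.91 to 88.5 TPM in DPBS mice. The part of these marker levels in the results below was not tested, and in whole tissue fewer cells of a type and less RNA per cell cannot be told apart.

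Acot1 had the largest difference in size of the members tested in both dose pairs, so the promoter sequences of its gene cluster are shown first. Acot1 encodes a cytosolic acyl-CoA thioesterase, which frees fatty acids from coenzyme A. It lies on the plus strand of chromosome 12 at 84009490 to 84018371 in GRCm38, with 3 exons, downstream of Acot2, a mitochondrial thioesterase gene at 83987861 to 83993873. Acot4 at 84038379 to 84048601 and Acot3 at 84052144 to 84060402, both genes of peroxisomal thioesterases, follow on the same strand. Each window below runs from 250 bases before to 50 bases after the RefSeq start (GRCm38.p6, plus strand), and the capitals mark the letters of the motifs searched on both strands: AGGTCA, the core of PPAR sites, CCAAT and TATAAA.
Acot2 (chr12:83987611-83987910): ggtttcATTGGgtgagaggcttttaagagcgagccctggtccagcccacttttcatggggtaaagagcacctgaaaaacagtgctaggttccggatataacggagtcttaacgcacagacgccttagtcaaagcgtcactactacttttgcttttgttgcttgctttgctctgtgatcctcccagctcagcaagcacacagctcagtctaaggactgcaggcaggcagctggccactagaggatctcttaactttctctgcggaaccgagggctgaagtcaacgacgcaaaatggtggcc
Acot1 (chr12:84009252-84009551): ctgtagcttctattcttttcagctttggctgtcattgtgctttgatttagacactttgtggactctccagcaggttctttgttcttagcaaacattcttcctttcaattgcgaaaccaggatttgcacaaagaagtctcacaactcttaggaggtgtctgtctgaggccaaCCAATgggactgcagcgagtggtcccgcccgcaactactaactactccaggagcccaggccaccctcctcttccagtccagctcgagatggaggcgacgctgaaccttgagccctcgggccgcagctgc
Acot4 (chr12:84038129-84038428): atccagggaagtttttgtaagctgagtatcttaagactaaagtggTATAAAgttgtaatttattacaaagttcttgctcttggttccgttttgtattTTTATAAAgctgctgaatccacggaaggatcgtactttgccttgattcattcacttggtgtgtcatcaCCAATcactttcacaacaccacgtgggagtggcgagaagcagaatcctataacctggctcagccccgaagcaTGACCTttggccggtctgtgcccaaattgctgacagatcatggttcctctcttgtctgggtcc
Acot3 (chr12:84051894-84052193): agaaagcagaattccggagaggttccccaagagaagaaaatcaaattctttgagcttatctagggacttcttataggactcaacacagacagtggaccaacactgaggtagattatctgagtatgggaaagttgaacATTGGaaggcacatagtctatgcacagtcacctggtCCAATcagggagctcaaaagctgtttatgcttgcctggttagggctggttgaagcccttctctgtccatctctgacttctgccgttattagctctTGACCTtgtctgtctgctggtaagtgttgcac
The Acot1 and Acot2 windows held CCAAT but neither AGGTCA nor TATAAA, whereas the Acot3 and Acot4 windows each held AGGTCA as well. Of 32851 windows of this length from all genes, 37.4% held CCAAT, 16.3% held AGGTCA and 13.6% held TATAAA, so CCAAT alone is common.

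Among 35 windows of 32 of the 37 genes, 6 held AGGTCA, beside 16.3% of all windows, so it was about as common here as elsewhere. These were the windows of Acadm, Acadvl, Cpt1a, Echs1, Fabp1 and Scp2. A full direct repeat, AGGNCANAGGNCA, with 1 base between the repeats as PPAR-alpha with its partner is known to bind, was in 0.381% of all windows. Among the genes with a window it was found in Fabp1, whose window is shown for that reason, with the same motifs in capitals.
Fabp1 (chr6:71199629-71199928, plus strand): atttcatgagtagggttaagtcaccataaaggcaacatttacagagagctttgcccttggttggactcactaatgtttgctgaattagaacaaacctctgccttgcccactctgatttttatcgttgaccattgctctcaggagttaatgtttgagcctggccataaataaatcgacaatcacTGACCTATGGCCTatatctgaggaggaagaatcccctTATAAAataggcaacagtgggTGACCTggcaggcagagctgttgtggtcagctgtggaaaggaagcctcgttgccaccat
Fabp1, the liver's abundant fatty acid binding protein, lies at 71199827 to 71205023 on chromosome 6. Its window held the repeat and a separate AGGTCA on the minus strand and TATAAA on the plus strand. A match of letters is a description of the window and shows no binding.

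The Upf3b-GalNAc-ASO sequence, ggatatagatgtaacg, of 16 bases, matched Upf3b transcripts with 0 mismatches. The closest match in any of the 37 genes had 4 mismatches, in Acsl1, Etfdh and Acat1, and the closest in Acot1 had 5. In all, 174 of 30562 genes, or 0.569%, held a match with 3 mismatches or fewer, and 0 of the 37 genes did. At so small a share, 0 of 37 says little about these genes. Transcripts were searched and introns were not, and pairing of the ASO with RNAs other than Upf3b was not tested.

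Acot1 had a lower mean in both Upf3b-GalNAc-ASO groups than in all 3 control groups, and the difference passed the test at 10 mg/kg against DPBS. In the 5 mice labelled 10 mg/kg it was 6.5, 10.4, 0, 10.9 and 6.96 TPM, from 20, 42, 0, 50 and 27 reads, where the 0 allows up to 2.94 TPM in the library labelled replicate 3. In the 4 control mice at 15 mg/kg it was 59.2, 32.7, 47.1 and 69.8 TPM, from 137 to 347 reads. The groups did not overlap, with every Upf3b value below the lowest control. DPBS mice ranged from 18.1 to 159 TPM with a median of 55.1 TPM.

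Against DPBS, Acot1 fell by 3.37 on the log2(TPM + 1) scale (SE 0.53) in the mice labelled 10 mg/kg, with an adjusted p of 0.0014 in limma, and by 2.52 without the library labelled replicate 3, with an adjusted p of 0.0018. This was 1 of 35 members tested, beside 0.376% of all 9032 genes. Against the 15 mg/kg control the difference was -3.16 (SE 0.64, 95% interval -4.53 to -1.78) with an adjusted p of 0.0579, which missed the threshold of 0.05. Without the library labelled replicate 3 it was -2.38 with an adjusted p of 0.00827. An exact two-sided permutation test of this gene alone, 1 of 5 such tests, was added after its values were seen and did not hold sex fixed. With all mice, the library labelled replicate 3 included, it gave p = 0.00794, the smallest that 5 mice against 4 can give. The groups were already seen not to overlap, so this p adds no support.

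In the higher dose pair Acot1 was 9.59, 2.50, 25.8, 23.9 and 58.1 TPM in Upf3b mice and 208, 51.5, 80.4, 38.6, 43.8 and 44.7 TPM in control mice. Here the groups overlapped, since the highest Upf3b mouse lay above 4 of the 6 controls. The difference was -1.86 (SE 0.63, interval -3.20 to -0.52) with an adjusted p of 0.128. The exact permutation test, likewise added after the values were seen, gave p = 0.0195. It did not hold sex fixed and was not adjusted for the 5 such tests, so this p adds no support. Against DPBS it was -1.74 (SE 0.47) with an adjusted p of 0.0781. The change of the Upf3b difference with dose was 1.17 and was not past the threshold, the smallest adjusted p among the members being 0.606.

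**Figure D1:**
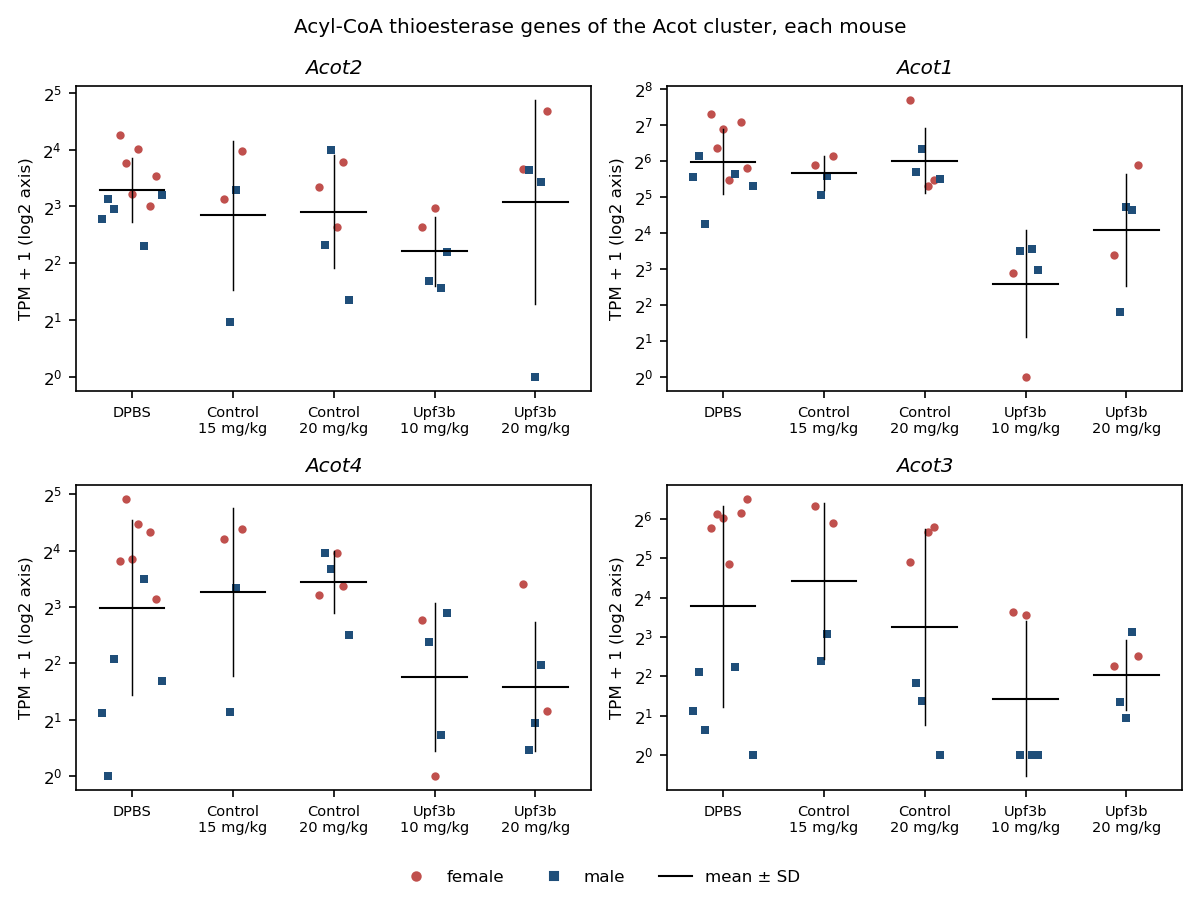
TPM + 1 on a log2 axis for Acot2, Acot1, Acot4 and Acot3 in each of the 31 mice by group, with females as circles, males as squares and lines for the mean ± SD of the log2 values. Acot1 lay between 0 and 10.9 TPM in the 5 mice labelled Upf3b 10 mg/kg, below all 4 control mice at 15 mg/kg (32.7 to 69.8 TPM).

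The neighbouring Acot genes were less alike. Acot2 was low in all groups, at 8.06 ± 5.62 TPM (n = 4) in 15 mg/kg control mice and 3.98 ± 2.08 TPM (n = 5) in Upf3b 10 mg/kg mice, a difference of -0.51 (SE 0.62, adjusted p = 0.712 in limma). Acot2 differed by 0.30 (SE 0.68) at 20 mg/kg. Acot3, a gene outside the 37, fell by 2.64 (SE 0.52, adjusted p = 0.0491) against the 15 mg/kg control, from 79.6 and 58.0 TPM in the 2 control females to 11.4 and 10.8 TPM in the 2 Upf3b females, the 10.8 TPM being in the library labelled replicate 3. Without that library the Acot3 difference was -2.65 (SE 0.55, adjusted p = 0.0273), and over all alternatives Acot3 passed in 7 of 19, with adjusted p of 0.0211 to 0.345. Its male mice were at 4.29 and 7.44 TPM in the control and were listed at 0 in all 3 Upf3b males. In this pair Acot3 reached the median of 5 TPM needed for testing in the control mice alone, where it was high, so its call is no support. Against DPBS, Acot3 differed by -1.71 (SE 0.46, adjusted p = 0.158 in limma) in the mice labelled 10 mg/kg. The 15 mg/kg controls themselves differed from DPBS mice in Acot3 by 0.85 (SE 0.44). The Acot3 difference at 20 mg/kg was -0.95 (adjusted p = 0.501). Acot4 differed by -1.45 at the lower dose, or -0.69 without the library labelled replicate 3, and by -1.80 at 20 mg/kg, with adjusted p of 0.400, 0.648 and 0.111. In the last 600 bases of Acot1, 9.3% of 31-base words were shared with other genes, none of them an Acot gene.

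Against the 15 mg/kg control, 0 of 35 members tested passed the adjusted threshold in limma, beside 0.295% of 9166 genes. Before adjustment, Acot1 and Fabp1 had a p under 0.05 and both were lower, so 2 of 35 were lower beside 7.94% of all genes and 0 were higher beside 7.83%, or 2 of 35 beside 15.8% in either direction. The same 2 passed the study's limits of a 2-fold change at an unadjusted p of 0.01 or less, beside 4.81% of genes. Acot1 was the 1 member whose groups did not overlap with Upf3b mice lower, beside 2.73% of all genes, and 0 members lay wholly higher, beside 2.08%. The median difference was -0.17 over the members and -0.03 over all genes. Without the library labelled replicate 3, the adjusted count was 1, Acot1, beside 0.989% of genes. Acads, Acadvl and Decr1 were then on the higher side at an unadjusted p under 0.05, beside 8.44% of genes, and Acot1, Eci2 and Fabp1 on the lower side, beside 7.19%. Without each mouse in turn, the calls over all genes ran from 2, without replicate 3 of the 15 mg/kg control, to 431, without Upf3b replicate 1, where the fit of all mice gave 27.

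Against the 20 mg/kg control, 0 of 36 members tested passed, beside 2.52% of 9376 genes. Before adjustment, 9 of 36 members had a p under 0.05, beside 18.7% of genes. Acads, Acadvl, Decr1 and Pdk4 were the 4 on the higher side, beside 7.32%, and Acot1, Etfdh, Acad11, Etfa and Eci2 the 5 on the lower side, beside 11.4%. Pdk4 passed the filter on low values only through the Upf3b mice, where it was high, so its place on the higher side is no support. At the study's limits the count was 1, Acot1, beside 6.23%. Acadvl was the 1 member with Upf3b mice wholly higher, beside 1.65% of genes, and 0 were wholly lower, beside 1.82%. The median was -0.07 over the members and -0.12 over all genes, a shift that single differences at 20 mg/kg can be read against. Without replicate 2 of the Upf3b mice, whose mean over the members of 6.31 was the lowest log2(TPM + 1) in that group, the adjusted count was 1, Acads, beside 2.85% of genes, and 6 members were on the higher side before adjustment, beside 8.51%, and 2 on the lower side, beside 9.88%. Without each mouse in turn, the calls over all genes ran from 70, without replicate 3 of the 20 mg/kg control, to 270, without Upf3b replicate 2, where the fit of all mice gave 236.

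**Figure D2:**
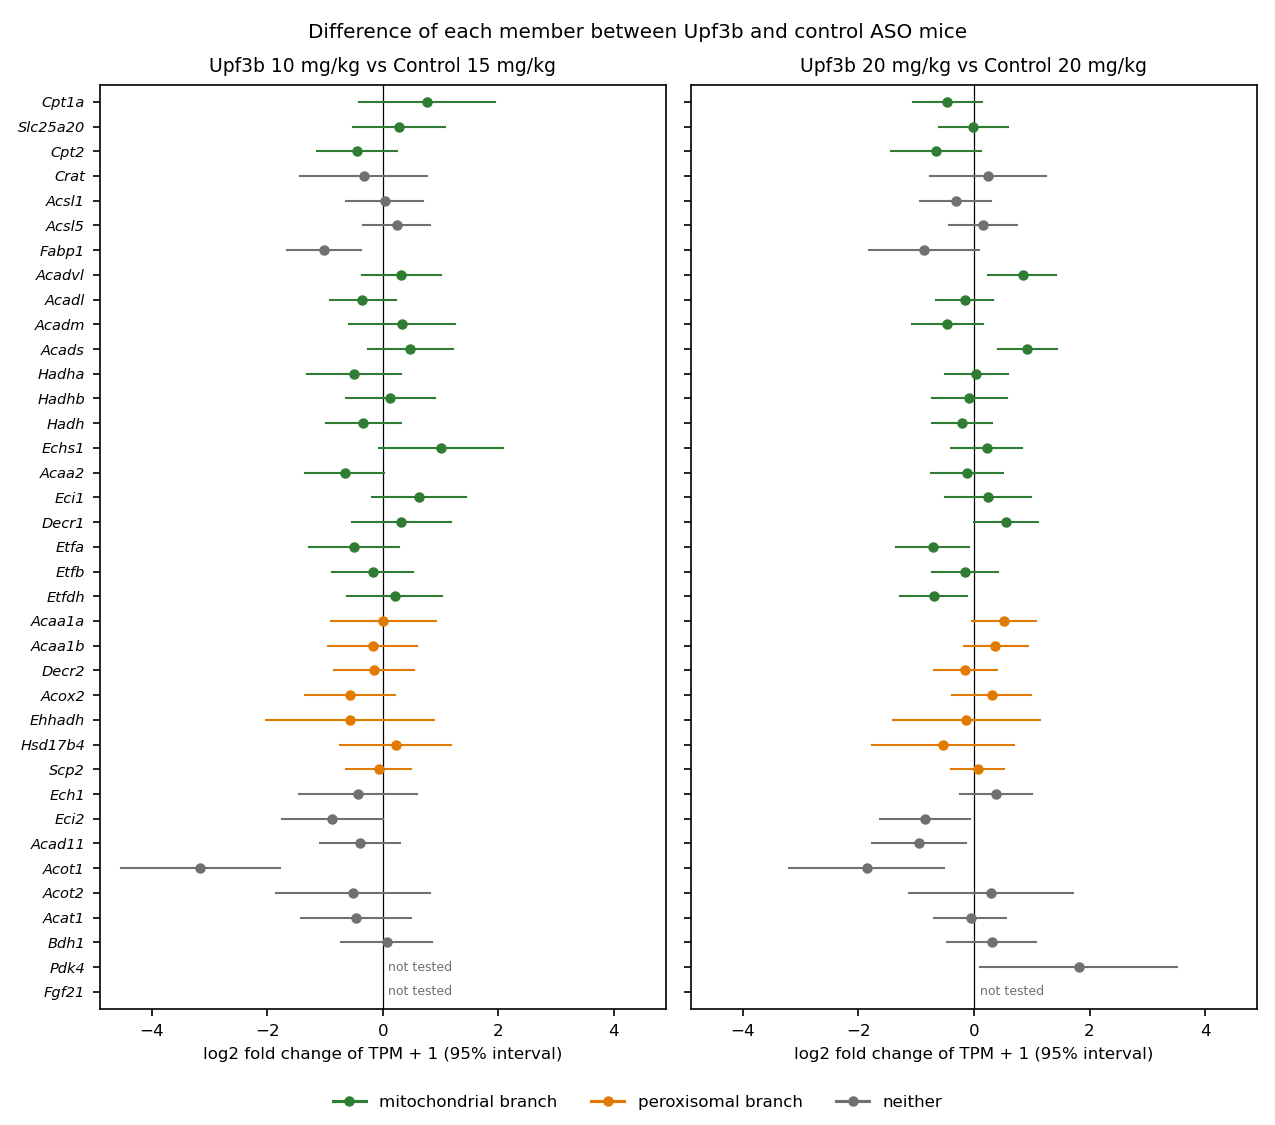
Log2 fold change of TPM + 1 with its 95% interval for each of the 37 genes, ordered by role, with mitochondrial, peroxisomal and other genes in different colours, for Upf3b against control mice at the lower dose pair (left) and at 20 mg/kg (right). Most intervals span 0, and Acot1 lies farthest to the left in both panels, at -3.16 and -1.86.

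The carnitine shuttle brings long chains into mitochondria. Cpt1a, which makes acylcarnitine on the outer membrane and is the rate-setting step, was 220, 555, 2463, 325 and 289 TPM in the mice labelled Upf3b 10 mg/kg and 261, 219, 348 and 411 TPM in the 15 mg/kg controls. The value of 2463 TPM was in the library labelled replicate 3, and the other 4 mice overlapped the controls. The difference was 0.77 (SE 0.55, adjusted p = 0.508), and 0.07 without that library. Cpt1a at 20 mg/kg was 183 to 433 TPM in Upf3b mice and 211 to 479 TPM in controls, a difference of -0.46 (SE 0.29, interval -1.06 to 0.14). The carnitine carrier Slc25a20 differed by 0.28 and -0.01, and Cpt2, which removes the carnitine inside, by -0.45 and -0.65. Crat, which handles short acyl groups, differed by -0.33 and 0.24.

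Long-chain fatty acids are activated by synthetases such as Acsl1 and Acsl5 and held in the cytosol by Fabp1. Acsl1 differed by 0.04 and -0.32 and Acsl5 by 0.24 and 0.15 at the lower and higher dose pair, all within error. Fabp1 was 1739, 2676, 962, 3989 and 2413 TPM in mice labelled Upf3b 10 mg/kg and 4260, 5169, 4566 and 2689 TPM in the 15 mg/kg controls. The groups overlapped through 1 mouse on each side, and the lowest value again belonged to the library labelled replicate 3. The difference was -1.02 (SE 0.30, interval -1.66 to -0.38) with an adjusted p of 0.147, and -0.80 without that library. Fabp1 at 20 mg/kg was 603 to 3267 TPM in Upf3b mice and 1759 to 5726 TPM in controls, with a difference of -0.87 (SE 0.44, adjusted p = 0.314).

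The mitochondrial acyl-CoA dehydrogenases take the first step of each round, and each prefers a chain length. Acads, for short chains, was 340, 293, 408, 416 and 410 TPM in Upf3b 20 mg/kg mice and 138, 185, 207, 200, 156 and 296 TPM in controls. The ranges overlapped by 1 mouse on each side. The difference was 0.92 (SE 0.25, interval 0.41 to 1.44) with an adjusted p of 0.0502 in limma, just outside the threshold. It came to 1.03 with an adjusted p of 0.0191 without Upf3b replicate 2. At the lower dose Acads was 427, 359, 160, 233 and 415 TPM against 173, 200, 217 and 267 TPM, a difference of 0.48 (SE 0.34, adjusted p = 0.504) and of 0.77 without the library labelled replicate 3. The 20 mg/kg control mice themselves differed from DPBS mice in Acads by -0.42 (SE 0.20, adjusted p = 0.495), and the Upf3b 20 mg/kg mice differed from DPBS by 0.50 (SE 0.23, adjusted p = 0.369).

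Acadvl, for very long chains, was 259, 287, 229, 289 and 212 TPM in Upf3b 20 mg/kg mice and 135, 193, 99.3, 177, 73.9 and 209 TPM in controls. The lowest Upf3b mouse lay just above the highest control. The difference was 0.84 (SE 0.28, interval 0.25 to 1.42, adjusted p = 0.112). DPBS mice ran from 87.0 to 365 TPM and overlapped both groups. Acadl, for long chains, differed by -0.35 and -0.16 at the lower and higher dose pair. Acadm, for medium chains, differed by 0.33 (SE 0.43) and -0.46 (SE 0.30), and its 10 mg/kg mice ran from 112 to 355 TPM.

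**Figure D3:**
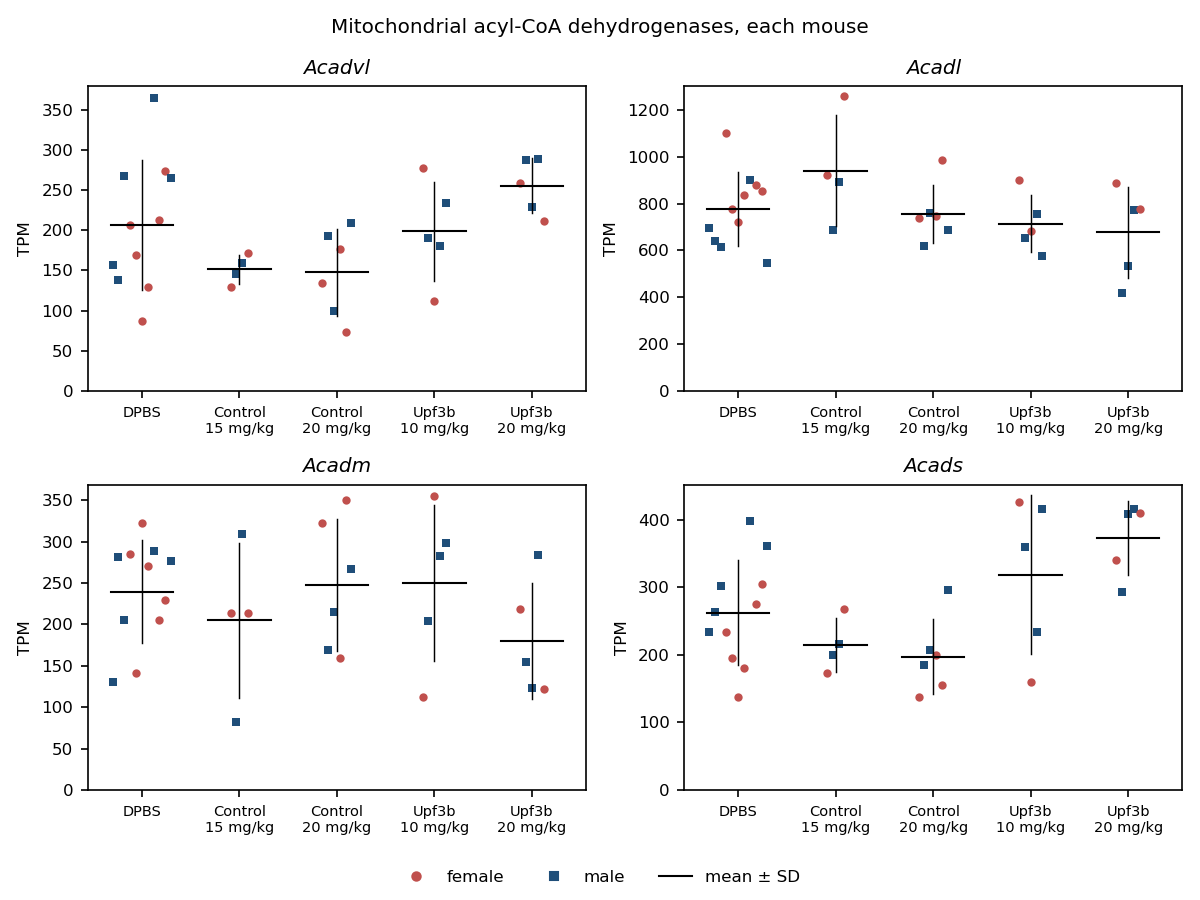
TPM of Acadvl, Acadl, Acadm and Acads in each of the 31 mice by group, with females as circles, males as squares and lines for the mean ± SD. Acads was 373 ± 54.8 TPM in Upf3b 20 mg/kg mice and 197 ± 55.3 TPM in 20 mg/kg control mice, and the Acadl and Acadm ranges of these groups overlapped.

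Hadha and Hadhb encode the alpha and beta subunits of the trifunctional protein, and their starts lie head to head on chromosome 5, Hadha on the minus strand ending at 30155162 and Hadhb on the plus strand from 30155248. Hadha was 352, 170, 104, 394 and 215 TPM in mice labelled Upf3b 10 mg/kg and 248 to 398 TPM in controls, a difference of -0.50 (SE 0.38, adjusted p = 0.537), and of -0.18 without the library labelled replicate 3, whose 104 TPM was the lowest. Hadhb was 40.2 to 83.6 TPM against 34.1 to 78.2 TPM, a difference of 0.13 (SE 0.36). The differences at 20 mg/kg were 0.04 (SE 0.26) and -0.08 (SE 0.31). Over the 31 mice, after removal of group and sex means, Hadha and Hadhb had a Pearson r of 0.19 and a Spearman rho of 0.22, with permutation p of 0.49 and 0.38 (adjusted 0.98 and 0.76 over 6 pairs tested) and an r of 0.03 without the 2 mice farthest from the median of Hadha. Within DPBS mice r was -0.34 and in the other 20 mice 0.35.

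The matrix enzymes for shorter chains gave no called member. Echs1, the short-chain hydratase, was 587 TPM in the library labelled Upf3b 10 mg/kg replicate 3 and 52.0 to 141 TPM in the other 4 mice, against 51.6 to 85.1 TPM in controls. Its difference was 1.01 (SE 0.50, adjusted p = 0.337), and 0.44 without that library. Hadh, the short-chain hydroxyacyl-CoA dehydrogenase, differed by -0.34 and -0.21, and the thiolase Acaa2 by -0.66 (SE 0.32, adjusted p = 0.324) and -0.12. Eci1, an isomerase for unsaturated chains, differed by 0.62 (SE 0.38) at the lower dose. Its controls at 15 mg/kg differed from DPBS mice by -0.66 (SE 0.28, adjusted p = 0.691). Decr1, the reductase for unsaturated chains, was 152, 63.6, 82.9, 113 and 123 TPM in Upf3b 20 mg/kg mice and 63.5 to 76.4 TPM in controls, a difference of 0.55 (SE 0.27, adjusted p = 0.268).

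The electron transfer flavoprotein takes electrons from the acyl-CoA dehydrogenases. Etfa, its alpha subunit, was 59.4, 28.0, 27.6, 57.4 and 50.1 TPM in Upf3b 20 mg/kg mice and 58.1 to 94.2 TPM in controls, a difference of -0.71 (SE 0.30, adjusted p = 0.216). Etfb, the beta subunit, differed by -0.15 (SE 0.27), but 59.5% of its end words were shared with Gm45233, so its reads are uncertain. Etfdh, which passes the electrons to the respiratory chain, was 42.3, 32.6, 45.1, 29.6 and 70.7 TPM against 59.5 to 82.3 TPM in controls, a difference of -0.70 (SE 0.28, adjusted p = 0.183). The controls at 20 mg/kg differed from DPBS mice in Etfdh by 0.73 (SE 0.25, adjusted p = 0.412). At 10 mg/kg Etfdh differed by 0.21, and it was the 1 member whose Upf3b difference had an unadjusted p under 0.05 between the dose pairs, at -0.94 (SE 0.45, adjusted p = 0.606), beside 8.16% of 9797 genes. By adjusted p, 0 members and 0.0% of genes differed between the dose pairs in limma.

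In the peroxisomal branch, 0 of 7 members had an unadjusted p under 0.05 in either dose pair, beside 15.8% of genes at the lower and 18.7% at the higher dose pair. Acaa1b, a thiolase, was 1061, 1782, 425, 1059 and 1869 TPM in mice labelled Upf3b 10 mg/kg and 1069 to 1457 TPM in controls, a difference of -0.17 (SE 0.36) that turned to 0.19 without the library labelled replicate 3. In the 20 mg/kg pair Acaa1b differed by 0.37 (SE 0.27) and Acaa1a by 0.52 (SE 0.27, adjusted p = 0.298). These genes shared 49.5% and 58.1% of their end words with each other, so reads may be split between them. Ehhadh, the bifunctional enzyme of the straight-chain path, was 39.6, 16.9, 4.9, 165 and 54.9 TPM in the mice labelled 10 mg/kg and 102, 5.95, 32.7, 78.1 and 194 TPM at 20 mg/kg, the lowest values being those of the library labelled replicate 3 and of replicate 2 at 20 mg/kg. Its differences of -0.57 (SE 0.68) and -0.13 (SE 0.59) were far smaller than their intervals. Acox2, the oxidase for branched chains and bile acid precursors, differed by -0.56 and 0.31, Hsd17b4, the second bifunctional enzyme, by 0.23 and -0.54, Decr2, the peroxisomal reductase, by -0.15 and -0.15, and Scp2, a thiolase and sterol carrier, by -0.07 and 0.07.

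The branches were compared by their medians over members, with no test. At the lower dose pair the median was 0.21 in the mitochondrial and -0.15 in the peroxisomal branch, beside -0.03 over all genes. These came to 0.06 and 0.03 without the library labelled replicate 3. At 20 mg/kg the order was the opposite, -0.12 and 0.07, beside -0.12 over all genes. In the mean log2(TPM + 1) of each mouse, the mitochondrial branch was 7.27 ± 0.043 in Upf3b 10 mg/kg mice (n = 5), 7.19 ± 0.188 in 15 mg/kg control mice (n = 4) and 7.24 ± 0.129 in DPBS mice (n = 11). The peroxisomal branch was 7.69 ± 0.625, 7.82 ± 0.200 and 7.71 ± 0.303 in the same groups. At 20 mg/kg, Upf3b and control mice were 7.15 ± 0.297 and 7.22 ± 0.0549 in the mitochondrial branch and 7.79 ± 0.634 and 7.74 ± 0.241 in the peroxisomal branch. The peroxisomal mean varied more between mice of 1 group than the mitochondrial mean did in each of the 5 groups, with fewer genes behind it. The 37 genes together took 0.916% to 1.91% of the TPM in the Upf3b mice and 1.19% to 1.88% in the control ASO mice.

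**Figure D4:**
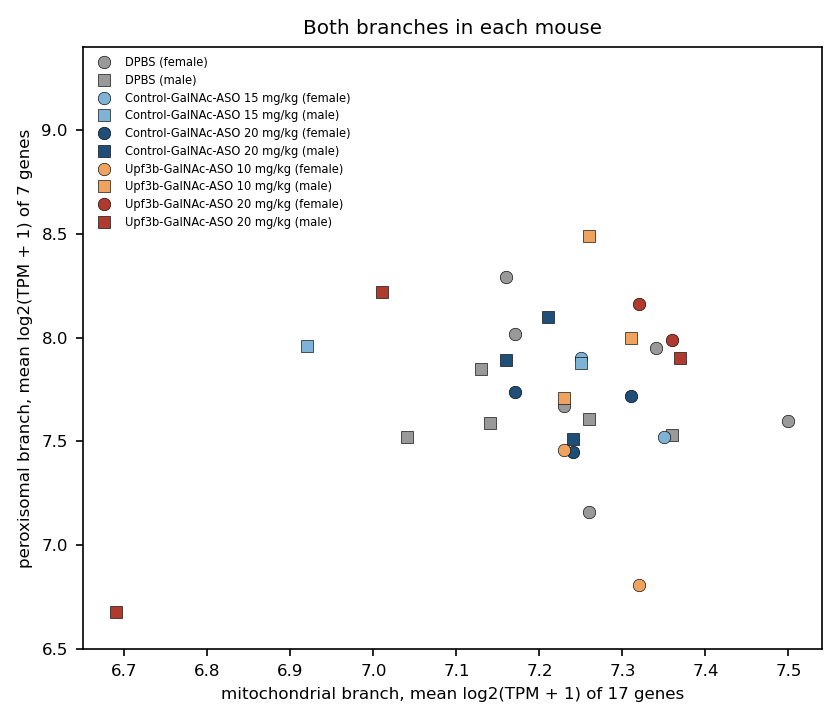
Mean log2(TPM + 1) of the 17 mitochondrial genes (x axis) against that of the 7 peroxisomal genes (y axis), 1 point per mouse, by group. Most mice lie near 7.2 on the x axis whatever their group, while the peroxisomal mean spreads from 6.68 to 8.49, both extremes being Upf3b mice.

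Ech1, Eci2 and Acad11 work in mitochondria, peroxisomes or both. Eci2, an isomerase, was 98.4, 153, 206, 320 and 74.7 TPM in mice labelled Upf3b 10 mg/kg and 357, 345, 216 and 211 TPM in controls, a difference of -0.88 (SE 0.41, adjusted p = 0.318). At 20 mg/kg it was 66.9 to 211 TPM against 79.7 to 326 TPM, a difference of -0.85 (SE 0.37, adjusted p = 0.232). The 15 mg/kg controls themselves differed from DPBS mice in Eci2 by 1.13 (SE 0.36, adjusted p = 0.691). Acad11, an acyl-CoA dehydrogenase, was 206, 30.4, 178, 150 and 175 TPM in Upf3b 20 mg/kg mice and 188 to 336 TPM in controls, a difference of -0.95 (SE 0.39, adjusted p = 0.204) that came to -0.48 without replicate 2. Ech1, an isomerase, differed by -0.42 and 0.38.

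Ketone bodies are made in liver from acetyl-CoA. Acat1, which joins acetyl-CoA units, differed by -0.46 (SE 0.45) and -0.06 (SE 0.30). Bdh1, which makes beta-hydroxybutyrate, was 1033, 1288, 481, 578 and 834 TPM in mice labelled Upf3b 10 mg/kg against 823 ± 390 TPM (n = 4) in controls, a difference of 0.07 (SE 0.37). For the 20 mg/kg pair it was 933, 218, 1142, 1126 and 1115 TPM against 474 to 1349 TPM, a difference of 0.31 (SE 0.37), and of 0.71 (adjusted p = 0.132) without replicate 2.

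Pdk4, a kinase that shuts pyruvate out of oxidation in fasting, and Fgf21, a hormone released by fasted liver, were low. Pdk4 was 4.8, 62.9, 1.38, 6.37 and 7.57 TPM in Upf3b 20 mg/kg mice and 10.7, 1.51, 1.92, 0.400, 0 and 1.02 TPM in controls. The 62.9 TPM belonged to replicate 2, in which Bdh1, Ehhadh, Cpt2 and Fabp1 were also the lowest of that group and the cholangiocyte marker sum was 199 TPM, against 16.6 to 25.9 TPM in the other 4 mice. The Pdk4 difference was 1.81 (SE 0.82, adjusted p = 0.239), and 1.12 (adjusted p = 0.476) without that mouse. Pdk4 reached a median of 5 TPM in the Upf3b 20 mg/kg mice alone, so it was not tested in the lower dose pair. Fgf21 was at 0 in 17 of 31 mice and did not reach 5 TPM in any group median, so it was not tested. Its highest value, 8.82 TPM from 9 reads, was in the library labelled Upf3b 10 mg/kg replicate 3.

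Against DPBS, the Upf3b mice shared the control group, so the values are given side by side. At 10 mg/kg, Cpt1a and Echs1 were higher and Acot1 and Acot2 lower at an unadjusted p under 0.05, 4 of 35 members beside 8.27% of genes (3.85% higher and 4.42% lower). Without the library labelled replicate 3, Acot1 and Acot2 were the members past that limit. At 20 mg/kg, Acads, Acox2 and Pdk4 were higher and Acot1, Etfa and Fabp1 lower, 6 of 36 beside 11.9% (5.38% higher and 6.53% lower), and 0 passed after adjustment, beside 1.13% of genes. Here too Pdk4 passed the filter on low values only through the Upf3b mice. For the control ASO alone against DPBS, the counts of members were 0 by adjusted p at 15 and at 20 mg/kg, beside 0.0% and 0.0% of genes in limma. At an unadjusted p under 0.05 they were 2 of 35, beside 7.18%, and 4 of 35, beside 9.9%.

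The other genes of the pathway were counted in the same way. Of 27 further oxidation and ketogenesis genes tested against the 15 mg/kg control, Acot3 was the 1 that passed the adjusted threshold, beside 0.295% of genes. Acot3 passed the filter on low values only through the control mice, where it was high, so its call is no support. At 20 mg/kg 0 of 27 passed, beside 2.52%, where the smallest adjusted p was 0.0578. Before adjustment, 6 of 27 had a p under 0.05 at the lower dose pair (2 higher and 4 lower) and 7 of 27 at the higher (3 higher and 4 lower), beside 15.8% and 18.7% of genes. Of 22 PPAR-alpha and other fasting targets tested, 0 passed in either dose pair in limma, beside 0.295% and 2.52% of genes. Without the library labelled replicate 3, Txnip and Pck1 of this list passed at the lower dose pair, as given under the other observations. With all mice and before adjustment, 4 of 22 had a p under 0.05 at the lower dose pair, all lower, beside 7.94% of genes lower and 15.8% in either direction. At the higher dose pair it was 6 of 22 beside 18.7%, 3 higher beside 7.32% and 3 lower beside 11.4%. Ppara itself differed by 0.59 (SE 0.78) and 0.13 (SE 0.33), and its well-known target Cyp4a14 by 0.39 (SE 0.76) and 0.28 (SE 0.53).

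Sex was the other labelled variable. In DPBS mice, 1 of 35 members passed the adjusted threshold between 5 males and 6 females, Scp2, beside 1.41% of 8998 genes, and 9 of 35 had an unadjusted p under 0.05, beside 9.86%. Scp2 was 5075 to 6113 TPM in males and 2647 to 4107 TPM in females. The ranges did not overlap, and Scp2 rose by 0.73 in males (SE 0.18, interval 0.36 to 1.10) with an adjusted p of 0.0451 in limma. It passed in 5 of 19 alternative settings, and leaving out any DPBS mouse other than replicate 5 took the adjusted p above the threshold. In the 10 control ASO mice, compared within dose, the male minus female difference was 0.85 with an exact permutation p of 0.0167, the smallest possible. In the 10 Upf3b mice it was 0.28 with an exact p of 0.2, or 0.09 with an exact p of 0.525 without the library labelled replicate 3, and the difference between these was not tested. In the last 600 bases of Scp2, 85.4% of the words were shared with Scp2-ps2, so the reads of this gene and that copy cannot be told apart.

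Other members with an unadjusted p under 0.05 between the sexes were Acaa1b on the higher side in males, at 0.45 (SE 0.21), and Crat, Acot1, Hadh, Acat1, Eci2, Acad11 and Acsl5 on the lower side. Crat was -1.34 (SE 0.54, adjusted p = 0.421) and Acot1 -1.11 (SE 0.38, adjusted p = 0.277). The median over the peroxisomal branch was -0.38 and over the mitochondrial branch -0.05, beside 0.03 over all genes. Among other genes of the pathway, Acot3 fell by 4.68 in males (adjusted p = 6.89e-06), from 27.9 to 90.0 TPM in females to at most 3.70 TPM, and Cyp4a14 fell by 2.38, Cyp4a10 by 1.68, Hacl1 by 1.52 and Acsl3 by 1.24. Cyp4a12a rose by 6.37 and Nudt7 by 1.59. The genes past the adjusted threshold in limma were 3 of 27 further oxidation genes and 4 of 21 fasting targets tested, beside 1.41% of genes. Among them, Acot3 passed the filter on low values only through females and Cyp4a12a only through males, where each was high, so their calls are no support. Over the 19 alternatives Cyp4a10 passed in 8, Acsl3 in 9, Hacl1 in 14 and Nudt7 in 18. Acot3, Cyp4a14 and Cyp4a12a passed in all 19.

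**Figure D5:**
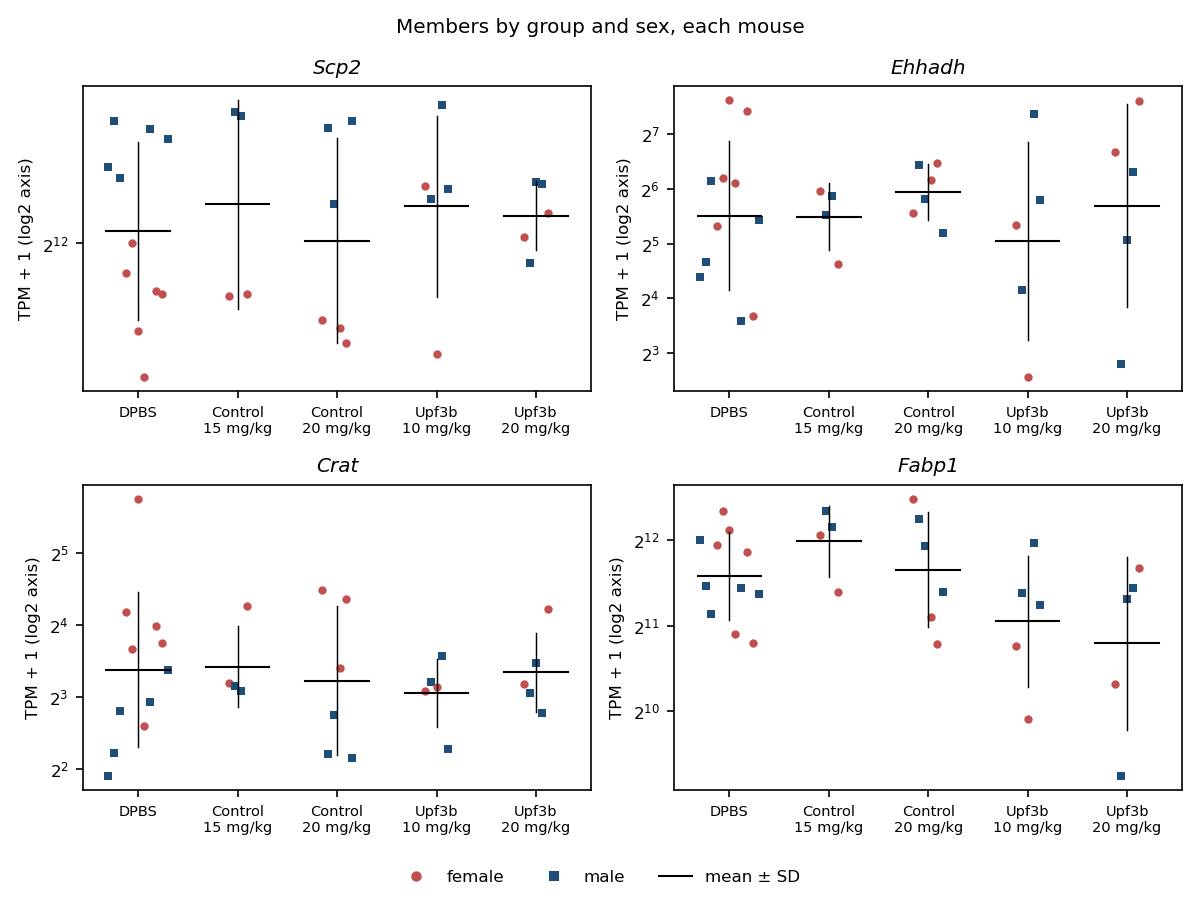
TPM + 1 on a log2 axis for Scp2, Ehhadh, Crat and Fabp1 in each of the 31 mice by group, with females as circles, males as squares and lines for the mean ± SD of the log2 values. In DPBS mice the males lie above the females in Scp2 (5075 to 6113 against 2647 to 4107 TPM).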

How the data were processed

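Liver RNA of 31 hFIX-R29X mice was sequenced from 3′ ends with the QuantSeq kit per the labels, whereas the study's methods name a TruSeq kit. The authors deposited TPM per gene symbol from Salmon 0.7.2 (bcl2fastq 2.17.1.14 and GRCm38.p4 in the submitters' processing notes), 1 file per mouse. In each file 31198 symbols were listed, and 26 turned into dates were left out. TPM are not counts, so no count test was run. From 70.2% to 81.6% of values were whole multiples of 1 read within 0.02 read, where chance gives 4%, which gave depth but not counts. For transcripts under 1 kb that share was 48.0% to 62.8%.

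limma 3.58.1 in R 4.3.3 (lmFit, eBayes with trend and robust) was fitted to log2(TPM + 1) of the genes whose median reached 5 TPM in either group compared, with sex as covariate. p-values were adjusted by Benjamini-Hochberg over all genes tested, with 0.05 as the threshold. Fold changes on this scale understate those of low genes. Groups and sexes came from the labels, each mouse being 1 library. Correlations used 100000 permutations within group and sex. Scripts ran in Python 3.11.15 with pandas 2.3.3 and scipy 1.17.1, and the fit was tested on simulated data. Positions came from GENCODE on GRCm38 and promoters from RefSeq on GRCm38.p6. Shared sequence is the percent of 31-base words of a gene's last 600 bases found in another gene.

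The members and lists were chosen with earlier results of these data known. By the naming rule, values of each mouse or ranges were given for members called in any comparison, the 3 with the smallest p in each direction in both dose pairs, and Cpt1a, Hadha, Hadhb, Acadm, Ehhadh, Acaa1b, Bdh1, Pdk4, Fgf21 and Fabp1. Of other genes, Upf3b, called genes of the 2 background lists, Ppara and Cyp4a14 were named, and other genes under that rule are not reported here. Acot2 and Acot4, Acot1's neighbours, and further members given by role were chosen after their values were seen. Alternatives changed the pseudocount, filter, centring, covariate, fit, block and mice. Same-numbered mice did not clearly deviate together, with r of -0.182 to 0.363 over 4 pairs and -0.265 to 0.102 over 5. So few pairs cannot exclude that the numbers link mice, and the main fit did not pair them.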

Additional observations from a re-analysis of the deposited data

Results flagged for a closer look

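In 148 sets of 1 member in 1 group of 4 to 6 mice, 15 had a mouse whose gap to its neighbour was a large part of the group's range, by Dixon's test at the 95% level. Chance gives about 1 in 20 such sets, and 14 of the 37 genes were involved. In the library labelled Upf3b-GalNAc-ASO 10 mg/kg replicate 3, whose Upf3b level goes against its label, Slc25a20 was the highest at 251 TPM (others 67.9 to 82.3), Ech1 the lowest at 11.8 TPM (others 35.1 to 46.4) and Acot1 the lowest at 0 TPM (others 6.5 to 10.9). In replicate 4 of that group Decr2 was 313 TPM (others 142 to 173).

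In Upf3b-GalNAc-ASO 20 mg/kg replicate 2, Cpt2 at 18.4 TPM, Acaa1b at 650.0 TPM, Acad11 at 30.4 TPM and Bdh1 at 218 TPM were the lowest of their group. In replicate 4, Acox2 at 171 TPM was the highest and Acot2 at 0 TPM the lowest (others 9.77 to 24.6). Among control mice, Hadha was 439 TPM in Control-GalNAc-ASO 20 mg/kg replicate 2 and Bdh1 1350 TPM in replicate 1. At 15 mg/kg, Crat was 18.3 TPM and Acaa1a 191 TPM in replicate 4, and Fgf21 was 7.39 TPM in replicate 2, where the other 3 mice were at 0.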

How the results depend on the processing

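Acot1 against DPBS at 10 mg/kg passed in all 26 alternatives, at -3.64 to -2.52 with adjusted p of 0.000288 to 0.0175. Against the 15 mg/kg control, Acot1 passed in 7 of 19 alternatives, making 1 member called with a pseudocount of 5, with each mouse centred, with all 31 mice in 1 fit, without the mice of lowest depth (chosen after seeing the depth; in this pair the library labelled replicate 3 alone, so this is the same fit as leaving that library out) and with the replicate block, and 0 to 1 without each mouse in turn. Its adjusted p ran from 0.00827 to 0.253. Against the 20 mg/kg control, 1 member, Acads, was called with a pseudocount of 5, a minimum of 10 TPM, centring or no sex covariate, and 0 to 1 without each mouse, and its adjusted p ran from 0.0177 to 0.245. Centring made 1 member, Acot1, called at 20 mg/kg against DPBS (adjusted p = 0.0488). Between the sexes, 0 members were called with a pseudocount of 5, centring, limma without trend and robust, or without the mice of lowest depth, 2 (Crat and Scp2) in the fit of all mice, and 0 to 1 without each mouse. The causes were not tested.

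Of the branch medians, the mitochondrial at the lower dose pair came to 0.06 without the mice of lowest depth and 0.06 to 0.31 without each mouse. Over all members at 10 mg/kg against DPBS it came to 0.07 and, without the library labelled replicate 3, 0.11. For the control ASO against DPBS, the mitochondrial median was -0.11 with the replicate block at 15 mg/kg and -0.15 with centring at 20 mg/kg, and the peroxisomal one rose to 0.38 without replicate 4 of the 15 mg/kg mice. With all mice in 1 fit the sex medians were -0.15 over all members and 0.11 over the peroxisomal branch. Small differences that were never past the threshold changed sign. Without each mouse in turn, the ranges at the lower dose pair were -0.35 to 0.19 for Acaa1b, -0.17 to 0.70 for Acadm, -0.16 to 0.37 for Bdh1, -1.03 to 0.07 for Ehhadh, -0.08 to 0.50 for Etfdh, -0.07 to 0.31 for Hadhb and -0.25 to 0.03 for Scp2, and at 20 mg/kg -0.02 to 0.54 for Eci1, -0.53 to 0.47 for Ehhadh, -0.05 to 0.24 for Hadha, -0.26 to 0.11 for Hadhb and -0.04 to 0.17 for Scp2. Without the mice of lowest depth Acaa1b was 0.19, Ehhadh 0.07, Etfdh -0.08 and Scp2 0.03 at the lower dose pair. With the block Hadha was -0.02 and Hadhb 0.08, and with centring Hadhb was 0.02, all at 20 mg/kg. The r of Cpt1a and Pdk4 came to 0.03 with centring and that of Ehhadh and Acaa1b to -0.12 without the library labelled replicate 3.

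The replicate block moved the calls over all genes from 27 to 95 at the lower dose pair and from 236 to 45 at 20 mg/kg, and against DPBS from 34 to 9 and from 103 to 42. It changed no other call of a member. Centring at 20 mg/kg moved the split of genes past an unadjusted p of 0.05 from 686 higher and 1065 lower to 899 and 835. Leaving out single mice was not run for the dose difference. Depth limits Pdk4, Fgf21, Acot2 and Crat most.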

Other observations

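Correlations of the other 5 pairs of members over the 31 mice, after removal of group and sex means, did not pass a permutation test within group and sex. Pdk4 and Fgf21 had an r of 0.37 and a rho of 0.40 (p = 0.085 and 0.077, adjusted 0.51 and 0.46), with r of 0.30 without the 2 mice farthest from the median of Pdk4, -0.53 in DPBS mice and 0.61 in the other 20. Cpt1a and Pdk4 had an r of -0.07 and a rho of -0.23 (permutation p = 0.85 and 0.37), with -0.44 without the 2 farthest mice. Their r was -0.83 in DPBS mice and 0.14 in the other 20. Acot1 and Pdk4 had an r of -0.23 and a rho of -0.17, Ehhadh and Acaa1b 0.07 and -0.09, and Etfa and Etfb -0.00 and -0.05, with adjusted p of 0.76 or more for each. In DPBS mice and in the other 20, r was -0.02 and -0.29 for Acot1 and Pdk4, -0.58 and 0.39 for Ehhadh and Acaa1b, and 0.17 and -0.11 for Etfa and Etfb. Differences in r between DPBS mice and the others were not tested.

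Outside the 37 genes, Txnip differed by -2.73 (SE 0.64, adjusted p = 0.0754 in limma) at the lower dose pair and by -0.25 at 20 mg/kg. Pck1, the gluconeogenic enzyme, differed by -1.12 and -1.22, with adjusted p of 0.0654 and 0.0702. Acot8, a peroxisomal thioesterase, differed by 2.29 and 2.26, with adjusted p of 0.254 and 0.0726. Without the library labelled replicate 3, the lower dose pair gave -1.94 for Txnip (adjusted p = 0.0228) and -1.11 for Pck1 (adjusted p = 0.0147), both then past the threshold, and 2.88 for Acot8 (adjusted p = 0.134). These genes were chosen after their values were seen. The controls of the lower dose pair themselves differed from DPBS mice by -1.88 (SE 0.78) in Acot8 and 0.72 (SE 0.4) in Pck1. The Upf3b mice of that pair differed from DPBS mice by 0.2 (SE 0.76) and -0.42 (SE 0.35). For Txnip these values were 0.72 (SE 0.42) and -1.9 (SE 0.6). At 20 mg/kg, controls and Upf3b mice differed from DPBS mice by -0.98 and 0.99 in Acot8 and by -0.15 and -1.31 in Pck1. These differences from DPBS did not pass the threshold. Acot8 was at 0 in 6 mice.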
